A study of Mus musculus with 48 samples.

Results

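The 8 dermal papilla marker genes, Corin, Alpl, Crabp1, Sox2, Sox18, Vcan, Prdm1 and Rspo3, were followed by symbol in 2 tables of gene expression from mouse skin. They are 8 of the 46983 genes listed in each table. Whole skin of C57BL/6 mice was taken from the chin, the ventral and the dorsal side at 6 stages of the hair cycle, which gave 18 groups of 2 or 3 libraries, 43 in all. The stages were competent telogen (rest in which follicles can answer a growth cue), early, mid and late anagen (growth), catagen (regression) and refractory telogen (rest in which they do not answer). The ear table held 2 libraries of ear skin in telogen, 3 of the cartilage/muscle complex of the ear and the 2 dorsal competent telogen libraries of the other table, so that 48 libraries were distinct. No mutant and no treatment enter these comparisons, and the labels give neither the age of the mice nor whether 1 library stands for 1 mouse, so p-values measure the spread between libraries only.

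The dermal papilla is a small knot of mesenchymal cells that sits under the hair bulb and sends the signals that start and sustain hair growth. It is recognised by alkaline phosphatase (Alpl), by the matrix proteoglycan versican (Vcan), by the membrane serine protease corin and by the retinoic acid binding protein Crabp1. Rspo3 is a secreted ligand that strengthens WNT signaling, and Sox2, Sox18 and Prdm1 are transcription factors of papilla cells or of their precursors. None of the 8 belongs to the papilla alone: Sox18 is also a factor of vessel endothelium, Sox2 of Merkel cells, and Prdm1 of epidermal, sheath and sebaceous cells. In whole skin, fewer cells of a type and less RNA per cell cannot be told apart.

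Levels are FPKM, the fragments per kilobase of transcript scaled to the mapped fragments of the library. Differences are log2 fold changes of FPKM + 1 with their SE, tested with limma over all 21257 genes of the skin table that reached 0.5 FPKM in at least 2 libraries, or 19299 of the ear table. Adding 1 FPKM makes the fold change of a low gene smaller than that of its raw level. All 8 genes passed this filter in the skin table, but Sox2 passed it through exactly 2 of 43 libraries, chin competent telogen replicate 1 and ventral early anagen replicate 3. These belong to the groups where it was highest, so every call on Sox2 depends on its own level: its values are given below as a description, and the counts say where they include it. In the ear table, 7 of 8 passed and Sox2 was not tested.

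Some libraries stood apart or went against their labels. Ventral catagen replicate 1 carries an ear location in 1 of its labels, although its name and source say ventral skin. Leaving it out ended no call over stages, at steps, among the domains or for their interaction. Differences between pairs of domains were not followed in such fits. The 5 proliferation genes, by the mean of log2(FPKM + 1), lay between 2.25 and 2.68 at refractory telogen and between 1.96 and 2.32 in ventral early anagen, a growth stage. In the other groups they lay between 3.70 and 5.29, and all competent telogen libraries, a resting stage, were among these. A list of 7 hair matrix and inner root sheath genes was likewise between 6.27 and 8.71 in all skin libraries, dorsal competent telogen among them at 8.41. The libraries of chin late anagen and dorsal competent telogen correlated at r from 0.981 to 0.983 over genes, as closely as replicates did (median 0.978), and the 8 genes were alike in both, for example Sox18 at 3.92 and 3.90 FPKM and Rspo3 at 1.58 and 1.48 FPKM. Stages are named below as labelled. The counts over stages, steps and domains, the correlations among the 8 genes and with gene lists, and the ear comparisons are also given without groups in doubt. Those correlations leave out competent telogen and early anagen but keep chin late anagen. Estimated depth ran from 6676623 to 25295140 fragments per library.

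The level of the 8 genes in each skin library is plotted by stage and domain. Over the 6 stages, 8 of 8 genes, Sox2 included, changed in chin skin, where 66.2% of all tested genes did, 8 of 8 in ventral skin (70.2%) and the 7 genes other than Sox2 in dorsal skin (68.5%). The courses differed between domains for 8 of 8 genes, again with Sox2, against 73.3% of all genes (limma, F-test of the 10 interaction contrasts). These shares are high in the whole table, so the counts say little about the 8 genes as a set. Without the competent telogen and early anagen libraries, 7 genes could be tested. Then 5 changed over the other 4 stages in each domain, against 58.6% of all genes in chin, 47.8% in ventral and 54.9% in dorsal skin, and the courses of 5 differed between domains (61.7%). Alpl was not called in any of these 4 tests. Their courses were of several kinds. Alpl, Vcan and Sox18 peaked in dorsal early anagen and in ventral competent telogen, Corin in catagen and Rspo3 in dorsal catagen. Crabp1 peaked in refractory telogen in chin and ventral skin but in early anagen in dorsal skin. Prdm1 was lowest where Alpl was highest in dorsal and in ventral skin, but not in chin skin.

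**Figure D1:**
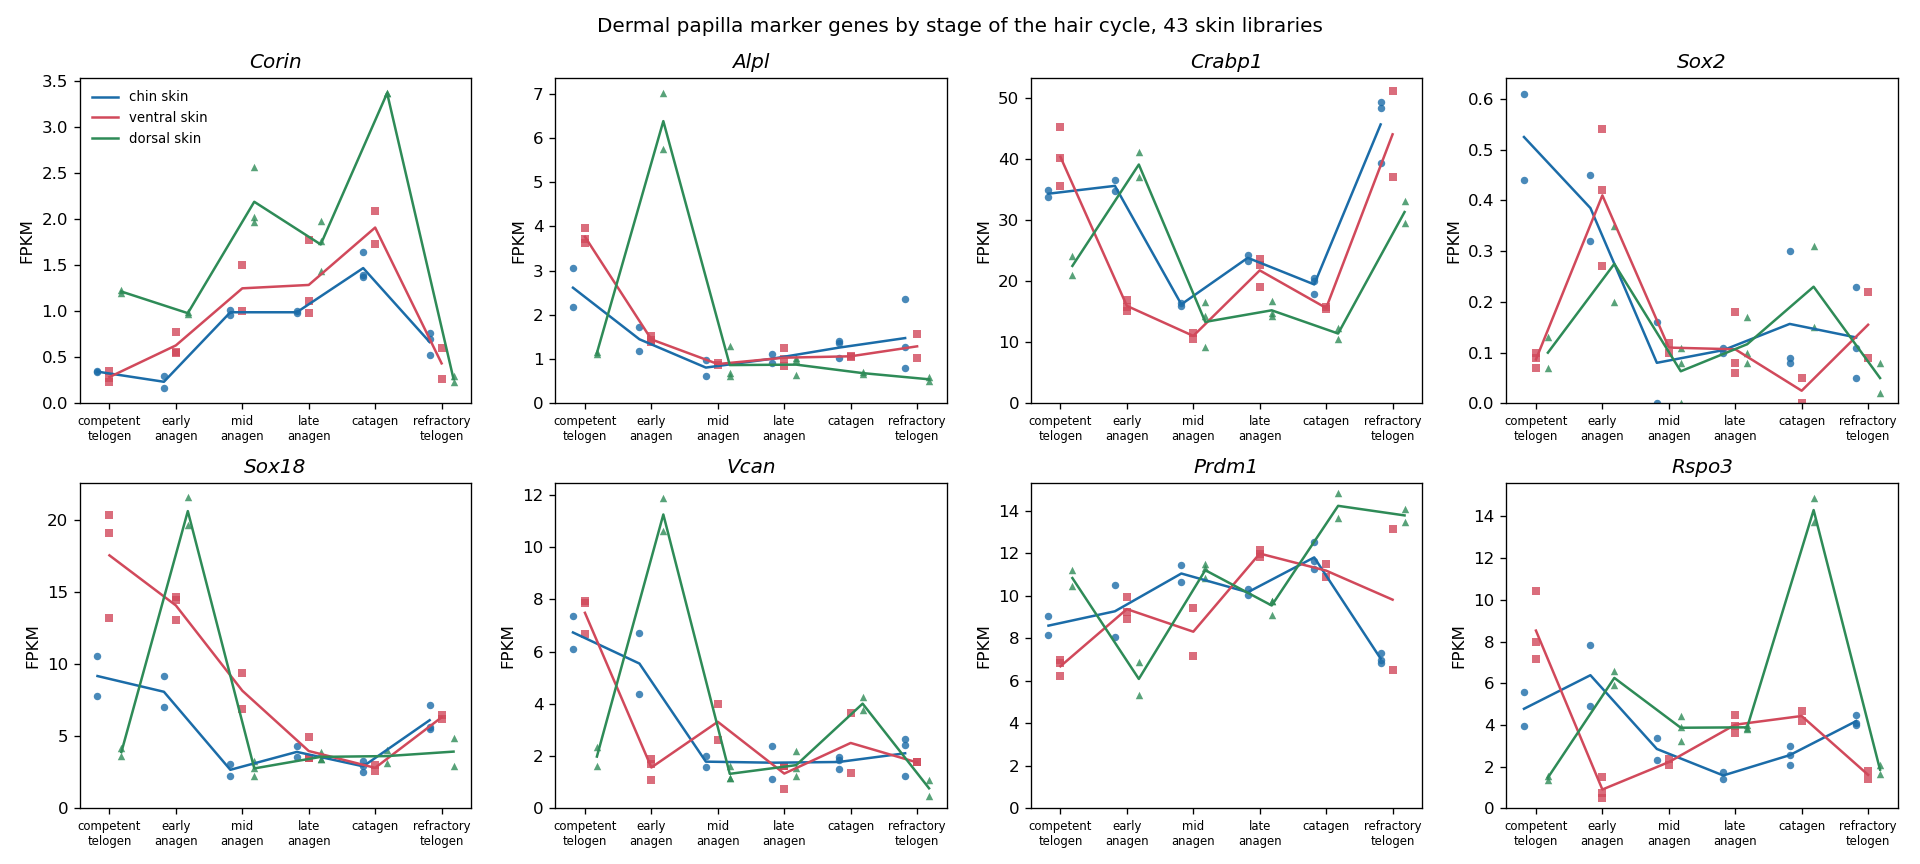
FPKM (linear axes from 0) of each gene in the 43 skin libraries at the 6 stages, with points for libraries, lines for group means and colours for chin, ventral and dorsal skin. Alpl, Vcan and Sox18 peak together in dorsal early anagen at 6.38, 11.2 and 20.6 FPKM, while Corin and Rspo3 peak in dorsal catagen at 3.37 and 14.3 FPKM.

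Alpl encodes the tissue-nonspecific alkaline phosphatase, whose activity is the classical stain of the papilla. It lies on chromosome 4 from 137741733 to 137796384 on the minus strand (GRCm38). In dorsal skin it measured 7.02 and 5.74 FPKM at early anagen, against 1.12 and 1.16 at competent telogen and 0.69, 1.29 and 0.62 at mid anagen. Both early anagen libraries stood above every other skin library. The rise was 1.78 ± 0.20 (SE; adjusted p = 2.5e-08) on the log2 scale, and the level then fell by 2.00 ± 0.18 (adjusted p = 4.8e-10). In ventral skin the high stage was competent telogen, with 3.96, 3.62 and 3.72 FPKM, against 1.56 and 1.02 at refractory telogen and 1.44, 1.52 and 1.38 at early anagen. Without overlap, Alpl was higher than at refractory telogen by 1.07 ± 0.18 (adjusted p = 1.6e-05) and fell by 0.96 ± 0.16 into early anagen (adjusted p = 1.5e-05). Chin competent telogen held 3.06 and 2.17 FPKM and overlapped chin refractory telogen at 2.35, 0.81 and 1.27 FPKM. The chin difference of 0.58 ± 0.18 (adjusted p = 0.011) was lost without chin competent telogen replicate 1 (adjusted p = 0.204) or chin refractory telogen replicate 2 (adjusted p = 0.0938). From mid anagen to catagen Alpl stayed between 0.62 and 1.40 FPKM in all 3 domains.

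Vcan encodes versican, a large chondroitin sulfate proteoglycan of the papilla matrix, on chromosome 13 from 89655312 to 89742509 (minus strand). It measured 11.87 and 10.63 FPKM in dorsal early anagen, 2.35 and 1.62 at dorsal competent telogen and 1.63, 1.18 and 1.16 at dorsal mid anagen. The early anagen pair lay far above both neighbours, with a rise of 2.05 ± 0.28 (adjusted p = 9.8e-07) and a decrease of -2.40 ± 0.25 (adjusted p = 1.3e-08). Ventral competent telogen held 6.67, 7.93 and 7.86 FPKM, ventral refractory telogen 1.76 in both libraries, and ventral early anagen 1.89, 1.10 and 1.71. Vcan was thus higher at ventral competent than at refractory telogen by 1.62 ± 0.25 (adjusted p = 6.9e-06) and fell by 1.74 ± 0.23 into early anagen (adjusted p = 4.0e-07). In chin skin it measured 7.37 and 6.10 FPKM at competent telogen against 2.44, 1.25 and 2.64 at refractory telogen (1.34 ± 0.25, adjusted p = 0.00011). Chin early anagen stayed high at 4.38 and 6.71 FPKM. The decrease to 2.01 and 1.57 FPKM at chin mid anagen (-1.21 ± 0.28, adjusted p = 0.0031) was lost without chin early anagen replicate 2 (adjusted p = 0.0604). Dorsal skin had a lesser second peak at catagen, 3.75 and 4.27 FPKM, which was higher than late anagen by 0.93 ± 0.25 (adjusted p = 0.0042) and fell by 1.52 ± 0.28 into refractory telogen (adjusted p = 4.8e-05).

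Because Alpl and Vcan moved together (r = 0.82 over the 18 group means of log2(FPKM + 1), 0.10 over the 12 groups without competent telogen and early anagen), the 250 bases before their starts are shown, with those of Corin, whose course was unlike theirs. They come from RefSeq on GRCm38.p6, which held an entry for 6 of the 8 genes and none matched to Sox18 or Rspo3. The windows are chr4:137796385-137796634 for Alpl, chr13:89742513-89742762 for Vcan and chr5:72504541-72504790 for Corin, all on the minus strand and written 5′ to 3′. Capitals mark matches to the TCF/LEF core CTTTG, the GC box GGGCGG, the CCAAT box CCAAT and the TATA box TATAAA on either strand.
Alpl: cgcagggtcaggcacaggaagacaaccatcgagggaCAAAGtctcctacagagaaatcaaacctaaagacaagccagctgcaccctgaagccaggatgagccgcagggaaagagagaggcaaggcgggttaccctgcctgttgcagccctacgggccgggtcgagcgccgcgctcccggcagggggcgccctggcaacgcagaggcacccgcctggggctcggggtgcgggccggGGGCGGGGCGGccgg
Vcan: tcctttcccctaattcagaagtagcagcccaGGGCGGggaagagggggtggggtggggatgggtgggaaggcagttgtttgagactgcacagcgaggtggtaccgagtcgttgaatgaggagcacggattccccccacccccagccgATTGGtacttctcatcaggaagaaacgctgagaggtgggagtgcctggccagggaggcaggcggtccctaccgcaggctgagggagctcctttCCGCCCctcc
Corin: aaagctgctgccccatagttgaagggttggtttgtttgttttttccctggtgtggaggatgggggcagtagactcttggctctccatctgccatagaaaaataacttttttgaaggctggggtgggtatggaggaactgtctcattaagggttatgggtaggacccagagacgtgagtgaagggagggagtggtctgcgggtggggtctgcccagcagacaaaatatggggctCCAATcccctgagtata
Alpl held 1 TCF/LEF core and 2 GC boxes, which share a base and appear as 1 run. Vcan held 2 GC boxes and 1 CCAAT box, and Corin held 1 CCAAT box. Of 32851 windows of this length, 48.6% held a TCF/LEF core, 32.7% a GC box, 33.8% a CCAAT box and 12.4% a TATA box. The GC content was 68.4% for Alpl, 62.4% for Vcan and 51.2% for Corin. These matches describe the letters of the windows and no binding was measured.

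Rspo3 encodes R-spondin 3, a secreted ligand of LGR receptors that raises the response to WNT. It lies on chromosome 10 from 29452416 to 29535867 (minus strand). Dorsal catagen held 14.86 and 13.74 FPKM, against 3.86, 3.82 and 3.98 at late anagen and 2.07 and 1.64 at refractory telogen. Both catagen libraries were above every other skin library. The rise was 1.65 ± 0.18 (adjusted p = 2.2e-08) and the decrease -2.43 ± 0.20 (adjusted p = 5.9e-11). In ventral skin Rspo3 was highest at competent telogen, with 7.98, 10.41 and 7.18 FPKM, and lowest at early anagen, with 0.74, 1.49 and 0.49. It fell by 2.34 ± 0.16 between these stages (adjusted p = 2.3e-12) and rose by 0.79 ± 0.18 into mid anagen (adjusted p = 0.00077). At the step from catagen to refractory telogen the domains differed in direction. Rspo3 fell from 4.17 and 4.69 to 1.80 and 1.42 FPKM in ventral skin (-1.06 ± 0.20, adjusted p = 0.00012), but rose from 2.09, 3.01 and 2.56 to 3.99, 4.48 and 4.08 FPKM in chin skin (0.55 ± 0.16, adjusted p = 0.0057). The chin rise kept its direction under quantile normalization without passing the threshold (0.31, adjusted p = 0.111). Dorsal early anagen, at 5.91 and 6.60 FPKM, was above dorsal competent telogen at 1.57 and 1.38 FPKM by 1.55 ± 0.20 (adjusted p = 3.8e-07).

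Corin encodes a membrane serine protease that cleaves pro-natriuretic peptides in the heart and, made by the papilla, acts on coat colour in the agouti pathway. It lies on chromosome 5 from 72300025 to 72504473 (minus strand). Its skin level was low, from 0.17 to 3.37 FPKM. In dorsal skin it rose from 1.44, 1.76 and 1.98 FPKM at late anagen to 3.37 in both catagen libraries (0.69 ± 0.13, adjusted p = 6.2e-05). It then fell to 0.30 and 0.23 FPKM at refractory telogen (-1.79 ± 0.14, adjusted p = 1.9e-11). The same step lowered it in ventral skin from 2.09 and 1.73 to 0.60 and 0.27 FPKM (-1.03 ± 0.14, adjusted p = 1.2e-06) and in chin skin from 1.37, 1.64 and 1.40 to 0.70, 0.53 and 0.77 FPKM (-0.57 ± 0.11, adjusted p = 0.00011). Corin thus fell without overlap from catagen to refractory telogen in each domain. It rose from early to mid anagen in chin skin, from 0.17 and 0.30 to 1.02 and 0.96 FPKM (0.69 ± 0.14, adjusted p = 0.00088), and in dorsal skin, from 0.97 and 0.99 to 1.97, 2.03 and 2.57 FPKM (0.68 ± 0.13, adjusted p = 8.0e-05). The same step in ventral skin (0.46 ± 0.13, adjusted p = 0.0040) was lost without ventral mid anagen replicate 2 (adjusted p = 0.151). Dorsal competent telogen, at 1.23 and 1.2 FPKM, was above dorsal refractory telogen by 0.81 ± 0.14 (adjusted p = 6.7e-05), whereas ventral and chin competent telogen were low, between 0.23 and 0.35 FPKM.

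Crabp1 encodes a cytosolic protein that binds retinoic acid, on chromosome 9 from 54764748 to 54773110 (plus strand). Per length it had the highest median of the 8 genes over the skin libraries, 20.93 FPKM, with a range from 9.15 to 51.06 FPKM. It rose from catagen to refractory telogen in each domain without overlap. In chin skin it went from 17.82, 20.08 and 20.48 to 49.29, 39.30 and 48.29 FPKM (1.18 ± 0.14, adjusted p = 3.5e-08). In ventral skin it went from 15.50 and 15.71 to 36.96 and 51.06 FPKM (1.42 ± 0.17, adjusted p = 1.7e-07), and in dorsal skin from 12.39 and 10.47 to 33.08 and 29.52 FPKM (1.38 ± 0.17, adjusted p = 1.1e-07). The stage at which it fell differed. In chin skin it was still high at early anagen, at 34.67 and 36.49 FPKM, and fell by 1.09 ± 0.17 (adjusted p = 4.0e-05) into mid anagen. In dorsal skin it first rose from a mean of 22.49 FPKM at competent telogen to 41.05 and 37.09 at early anagen (0.77 ± 0.17, adjusted p = 0.00049). It then fell by 1.52 ± 0.15 (adjusted p = 6.1e-09) into mid anagen. In ventral skin it fell 1 step earlier, from 45.15, 40.15 and 35.63 FPKM at competent telogen to 15.77, 16.90 and 15.18 at early anagen (-1.28 ± 0.14, adjusted p = 1.4e-08). Crabp1 ran opposite to Corin over the 18 group means (r = -0.78) and over the 12 without competent telogen and early anagen (r = -0.81). With the proliferation genes its r was -0.20 over the 18 and -0.91 over the 12 groups, and the part of these genes in its course was not tested.

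Sox18 encodes a transcription factor of vessel endothelium that is also used as a marker of the papilla, on chromosome 2 from 181669836 to 181671640 (minus strand). It measured 21.55 and 19.64 FPKM in dorsal early anagen, 3.64 and 4.17 at dorsal competent telogen and 2.25, 3.25 and 2.81 at dorsal mid anagen. The peak was 2.14 ± 0.20 above the stage before it (adjusted p = 1.3e-09) and the level fell by 2.53 ± 0.18 after it (adjusted p = 6.9e-12). In ventral skin it was high at competent telogen, at 20.30, 19.09 and 13.20 FPKM against 6.45 and 6.17 at refractory telogen (1.32 ± 0.18, adjusted p = 1.1e-06). Unlike Alpl and Vcan, it was still 13.03, 14.68 and 14.47 FPKM at ventral early anagen, which overlapped competent telogen. It fell by 0.88 ± 0.18 from mid to late anagen (adjusted p = 0.00067). In chin skin it fell from 7.02 and 9.14 FPKM at early anagen to 3.09 and 2.26 at mid anagen (-1.30 ± 0.20, adjusted p = 3.3e-05) and rose again from catagen, at 2.93, 2.55 and 3.27, to 7.15, 5.66 and 5.52 at refractory telogen (0.86 ± 0.16, adjusted p = 7.0e-05). The mean of log2(FPKM + 1) over 8 endothelial genes was highest at ventral early anagen, from 4.22 to 4.26, against 3.04 to 3.11 at ventral competent telogen and 3.26 to 3.29 at dorsal early anagen. Sox18 and the endothelial genes correlated at r = 0.76 over the 18 groups, Sox18 and 6 dermal fibroblast genes at 0.88, and Sox18 and 4 sebaceous gland genes at 0.90. Without competent telogen and early anagen these were 0.84, 0.96 and 0.73. The part of these cell types in the level of Sox18 was not tested.

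Prdm1 encodes the transcriptional repressor Blimp1, on chromosome 10 from 44437177 to 44528501 (minus strand). It varied least in fold among the 7 genes other than Sox2, with a 2.34-fold range between group means. In dorsal skin it fell from 10.44 and 11.21 FPKM at competent telogen to 5.31 and 6.86 at early anagen (-0.75 ± 0.16, adjusted p = 0.00042). It returned to 10.81, 11.29 and 11.49 FPKM at mid anagen (0.79 ± 0.15, adjusted p = 9.0e-05), so its trough fell on the stage of the Alpl, Vcan and Sox18 peaks. Its correlation over the 18 groups was -0.80 with Alpl and with Sox18, and -0.63 and -0.66 over the 12 without competent telogen and early anagen. In ventral skin it rose from 6.98, 6.83 and 6.23 FPKM at competent telogen to 9.95, 8.91 and 9.24 at early anagen (0.43 ± 0.13, adjusted p = 0.0088). In chin skin it fell from 11.26, 12.50 and 11.63 FPKM at catagen to 7.32, 6.97 and 6.83 at refractory telogen (-0.67 ± 0.13, adjusted p = 0.00010), a step at which dorsal skin kept 13.45 and 14.09 FPKM. The 2 ventral refractory telogen libraries disagreed, at 13.13 and 6.49 FPKM. The difference between ventral competent and refractory telogen (-0.42 ± 0.15, adjusted p = 0.021) was lost without ventral competent telogen replicate 3 (adjusted p = 0.0642) and changed sign without ventral refractory telogen replicate 1 (0.03, adjusted p = 0.882). Prdm1 ran opposite to the 4 sebaceous gland genes (r = -0.89, or -0.86 over the 12 groups), whose part in its course was not tested.

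Sox2 encodes a transcription factor of the papilla of the larger hair types and lies on chromosome 3 from 34650405 to 34652461 (plus strand), inside the noncoding gene Sox2ot on the same strand. It was close to the limit of detection. From the step of its FPKM values, a skin library held an estimated 0 to 15.2 Sox2 fragments with a median of 2.9, and 28 of 43 libraries had 3 or fewer. A single fragment was worth 0.021 to 0.0795 FPKM. Chin competent telogen measured 0.61 and 0.44 FPKM, about 10.9 and 12.4 fragments, and chin refractory telogen 0.05, 0.11 and 0.23 FPKM, about 1.0, 2.0 and 5.7 fragments. The groups did not overlap. Ventral early anagen measured 0.42, 0.27 and 0.54 FPKM, about 14.4, 6.7 and 15.2 fragments, against 0.09, 0.07 and 0.10 at ventral competent telogen, about 2.0, 1.0 and 2.8 fragments. These values describe where the gene was detected. Sox2ot reached at most 0.61 FPKM in skin, and fragments of genes that overlap on 1 strand cannot be fully told apart. The 5 Merkel cell genes were lower in chin competent telogen, at 0.53 to 0.61 on the mean log2 scale, than in chin refractory telogen, at 1.27 to 1.39. Their correlation with Sox2 was -0.48 over the 18 groups and 0.26 over the 12 without competent telogen and early anagen. The part of Merkel cells in the level of Sox2 was not tested.

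**Figure D2:**
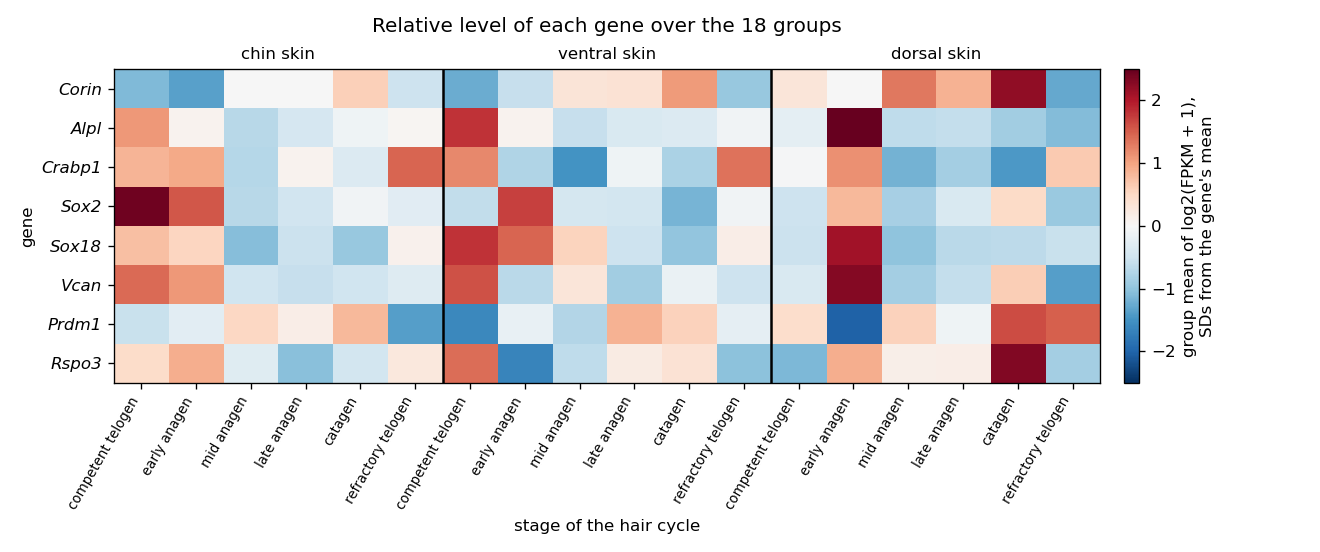
Group means of log2(FPKM + 1) for each gene in the 18 groups, as SDs from the gene's own mean over the groups, in red where high and blue where low. Dorsal early anagen and ventral competent telogen are red for Alpl, Sox18 and Vcan and blue for Prdm1, and dorsal catagen is red for Corin, Prdm1 and Rspo3.

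The steps from stage to stage are shown as a map of fold changes. Each stage was set against the stage before it, and competent telogen against refractory telogen. In the paper, competent telogen is the first telogen and refractory telogen the early second one. This last comparison therefore does not follow time, and telogen type cannot be told apart from cycle number and age. It is counted as a step below. Of 48 pairs of gene and step in a domain, 9 rose and 9 fell in chin skin, where 11.7% and 11.2% of all such pairs did. In ventral skin 15 rose and 12 fell (15.8% and 16.1% of all pairs), and in dorsal skin 14 rose and 11 fell (16% and 15.7%). Sox2 gave 1 of the rises and 1 of the falls in chin and in ventral skin and 1 of the falls in dorsal skin. Of these 70 calls, 45 were lost neither with a library left out nor under another setting in any fit that tested the gene. The moves were bunched at a few steps, at most of which a large share of all genes moved as well. Into dorsal early anagen 5 of 8 genes rose and 1 fell, where 35.2% and 8.24% of all genes did, and out of it 2 rose and 6 fell (9.09% and 30.1%). Into ventral early anagen 3 rose and 4 fell (13.2% and 29.3%), and out of it 3 rose and 3 fell (16.8% and 25.6%). Into chin mid anagen 1 rose, Corin, and 5 fell (3.66% and 14.5%). Among these counts, Sox2 gave 1 of the rises into ventral early anagen and 1 of the falls out of early anagen in each domain. Beside the losses given above for Vcan in chin and Corin in ventral skin, single libraries decided the falls of Rspo3 out of chin early anagen (adjusted p = 0.0649) and of Sox18 out of ventral early anagen (adjusted p = 0.0696), the fall of Rspo3 out of dorsal early anagen (adjusted p up to 0.0994), the rise of Corin into ventral early anagen (adjusted p up to 0.0880), and the rise of Vcan (adjusted p up to 0.244) and fall of Crabp1 (adjusted p up to 0.102) out of it. All calls on Sox2 out of early anagen were lost in this way too. The median change of the 8 genes, Sox2 included, was 1.16 into dorsal early anagen and -1.05 out of it, against 0.25 and -0.18 for all genes, and -0.62 into ventral early anagen against -0.10.

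At 4 steps none of the 8 genes passed with limma. They were chin competent telogen to early anagen, where 1.26% of all genes rose and 0.875% fell, chin late anagen to catagen (8.94% and 4.19%), ventral late anagen to catagen (2.83% and 3.1%) and dorsal mid to late anagen (1.15% and 1.53%). At an unadjusted p under 0.05 there were 1 (Alpl), 2 (Corin and Rspo3), 3 (Corin, Crabp1 and Vcan) and 0 genes. At the entry into catagen the calls were made in dorsal skin, where Corin, Vcan, Prdm1 and Rspo3 rose and Crabp1 fell (20% and 18.7% of all genes). The Crabp1 call was lost without any 1 of the 5 libraries (adjusted p up to 0.338) and that of Prdm1 without dorsal catagen replicate 1 (adjusted p = 0.0581). From catagen to refractory telogen 3 rose and 2 fell in chin skin (30.5% and 17.5%), 2 and 2 in ventral skin (14.9% and 18.8%), and 1 and 3 in dorsal skin (19.1% and 24.5%). Crabp1 rose and Corin fell at this step in all 3 domains. From mid to late anagen Crabp1 was called higher and Rspo3 lower in chin skin (7.43% and 12.3%), but the first was lost without any 1 of the 4 libraries (adjusted p up to 0.128) and the second without 3 of them (adjusted p up to 0.334). In ventral skin Crabp1, Prdm1 and Rspo3 rose and Sox18 and Vcan fell (12.6% and 11.6%), of which Prdm1 (adjusted p = 0.269), Rspo3 (adjusted p = 0.0982) and Vcan (adjusted p up to 0.183) were each lost without 1 or more single libraries. Competent against refractory telogen showed 4 genes, Sox2 included, higher and 1 lower in chin skin (18.4% and 17.8%), 4 and 1 in ventral skin (34.5% and 8.12%), and 2 and 0 in dorsal skin (11.3% and 10.8%). Alpl, Sox18 and Vcan were the genes called higher at competent telogen in both chin and ventral skin, but in chin skin Sox18 was lost without any 1 of 3 libraries (adjusted p up to 0.364) and Alpl as given above. The lower Crabp1 of chin skin (adjusted p up to 0.176) and the higher Vcan of dorsal skin (adjusted p up to 0.367) were lost in the same way. Over the 3 steps that use neither competent telogen nor early anagen, 4 rose and 3 fell in chin skin. In ventral skin 5 rose and 4 fell, and in dorsal skin 5 rose and 4 fell. The shares of all genes at each of these steps are given above. A fit without the competent telogen and early anagen libraries gave the same counts except for 3 falls in dorsal skin, where Crabp1 was lost (adjusted p = 0.0844). No share of all genes is given for the steps of that fit. The equal count of rises in chin skin held different calls, since Crabp1 at late anagen was lost (adjusted p = 0.0566) and Rspo3 at catagen was gained (0.46, adjusted p = 0.0308).

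**Figure D3:**
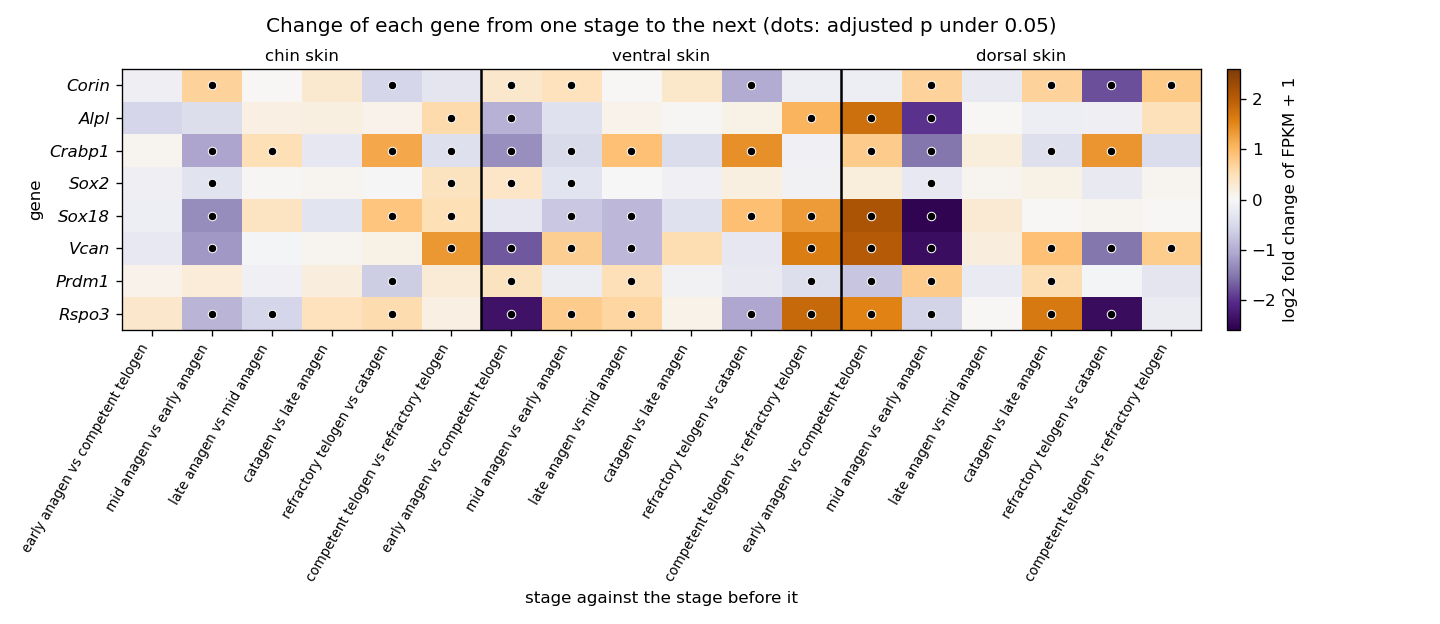
Log2 fold change of FPKM + 1 from each stage to the next, and of competent against refractory telogen, for the 8 genes in chin, ventral and dorsal skin. Orange marks higher and purple lower, with a dot where the adjusted p is under 0.05. Alpl, Sox18, Vcan and Rspo3 are dark orange into dorsal early anagen, at 1.78, 2.14, 2.05 and 1.55, and Alpl, Vcan and Rspo3 are purple into ventral early anagen, at -0.96, -1.74 and -2.34.

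Of 24 further genes known from the papilla, 23 were tested in skin. Into dorsal early anagen 14 of 23 rose and 1 fell, where 35.2% and 8.24% of all genes did, and out of it 2 rose and 16 fell (9.09% and 30.1%). Into ventral early anagen 3 rose and 17 fell (13.2% and 29.3%). The WNT inhibitor Wif1 rose by 1.87 into dorsal early anagen (adjusted p = 5.1e-11) and fell by 4.22 into ventral early anagen (adjusted p = 3.9e-21). Fgf7, a growth factor for keratinocytes, went the same ways, by 1.28 (adjusted p = 4.2e-05) and -1.85 (adjusted p = 3.6e-09). Over the 18 groups the mean of the 24 genes correlated with Vcan at r = 0.94, with Rspo3 at 0.79 and with Alpl at 0.75, but with Corin at -0.13. Over the 12 groups without competent telogen and early anagen the values were 0.78, 0.86, -0.08 and 0.86, so that Alpl and Corin changed places. Dermal fibroblast genes moved at the same steps, from 6.71 to 6.72 at dorsal competent telogen to 8.37 to 8.38 at dorsal early anagen, and from 8.61 to 8.68 at ventral competent telogen to 7.03 to 7.13 at ventral early anagen. Their part in these changes was not tested.

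Domains were compared at each stage. In competent telogen 8 of 8 genes, Sox2 included, differed between domains, where 54% of all genes did, and in early anagen 7 (51.6%). The number was 5 in mid anagen (38.1%), 3 in late anagen (20.8%), 4 in catagen (42.9%) and 7 in refractory telogen (42.2%). At competent telogen, 7 of 8 genes differed between dorsal and ventral skin (47.9% of all genes). Rspo3 was lower there than in ventral skin by -1.93 ± 0.18 (adjusted p = 1.0e-09), Sox18 by -1.90 ± 0.18 (adjusted p = 1.7e-09), Vcan by -1.51 ± 0.25 (adjusted p = 1.5e-05) and Alpl by -1.15 ± 0.18 (adjusted p = 4.4e-06), while Corin was higher by 0.78 ± 0.13 (adjusted p = 8.1e-06). Without the 2 dorsal competent telogen libraries, which resembled chin late anagen, Sox18 and Rspo3 still differed at this stage, as did Sox2, which a library of this comparison carried over the filter (22.6% of all genes did). At early anagen the order turned. Here 6 of 8 genes differed between dorsal and ventral skin (41.7%) and 5 between dorsal and chin skin (27%). Dorsal skin was above ventral skin in Vcan by 2.27 ± 0.25 (adjusted p = 2.9e-08), Rspo3 by 1.96 ± 0.18 (adjusted p = 7.4e-10), Alpl by 1.59 ± 0.18 (adjusted p = 2.9e-08) and Crabp1 by 1.24 ± 0.15 (adjusted p = 1.8e-07). Alpl in dorsal skin was equally far above chin skin, by 1.59 ± 0.20 (adjusted p = 4.6e-07). Without ventral early anagen, whose proliferation genes were low, the differences of Crabp1 and Rspo3 were lost and 5 genes still differed (26.3% of all genes).

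At mid anagen Sox18 was higher in ventral than in chin skin by 1.31 ± 0.20 (adjusted p = 2.5e-05), and Crabp1 was the other of 2 genes called there (22.1% of all genes). Corin was higher in dorsal than in chin skin by 0.68 ± 0.13 (adjusted p = 0.00039) as the 1 gene called (17.2%). The calls of Crabp1, Vcan and Rspo3 among the domains at mid anagen were each lost without 1 or more single libraries. The 3 calls at late anagen, Corin, Crabp1 and Rspo3, were all lost without the chin late anagen libraries, which resembled dorsal competent telogen (limma, 0 called, 3 at an unadjusted p under 0.05). The share of all genes in that fit is not given. At catagen 4 genes differed between dorsal and chin skin (41.3%), with dorsal skin above in Rspo3 by 2.11 ± 0.18 (adjusted p = 1.7e-10) and in Corin by 0.82 ± 0.13 (adjusted p = 4.2e-06), and below in Crabp1 by -0.72 ± 0.15 (adjusted p = 0.00035). At refractory telogen 7 genes differed between dorsal and chin skin (34.8%) and 1 between ventral and chin skin (30.7%). Prdm1 was higher in dorsal than in chin skin by 0.88 ± 0.15 (adjusted p = 2.4e-05), and Rspo3 was lower in ventral (-0.99 ± 0.18, adjusted p = 0.00011) and in dorsal skin (-0.86 ± 0.18, adjusted p = 0.00038) than in chin skin. In the F-test among the domains, the calls of the other 5 genes at this stage were each lost without 1 or more single libraries. Without dorsal refractory telogen replicate 2 alone, the count went from 7 to 2, and the share of all genes in that fit is not given.

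**Figure D4:**
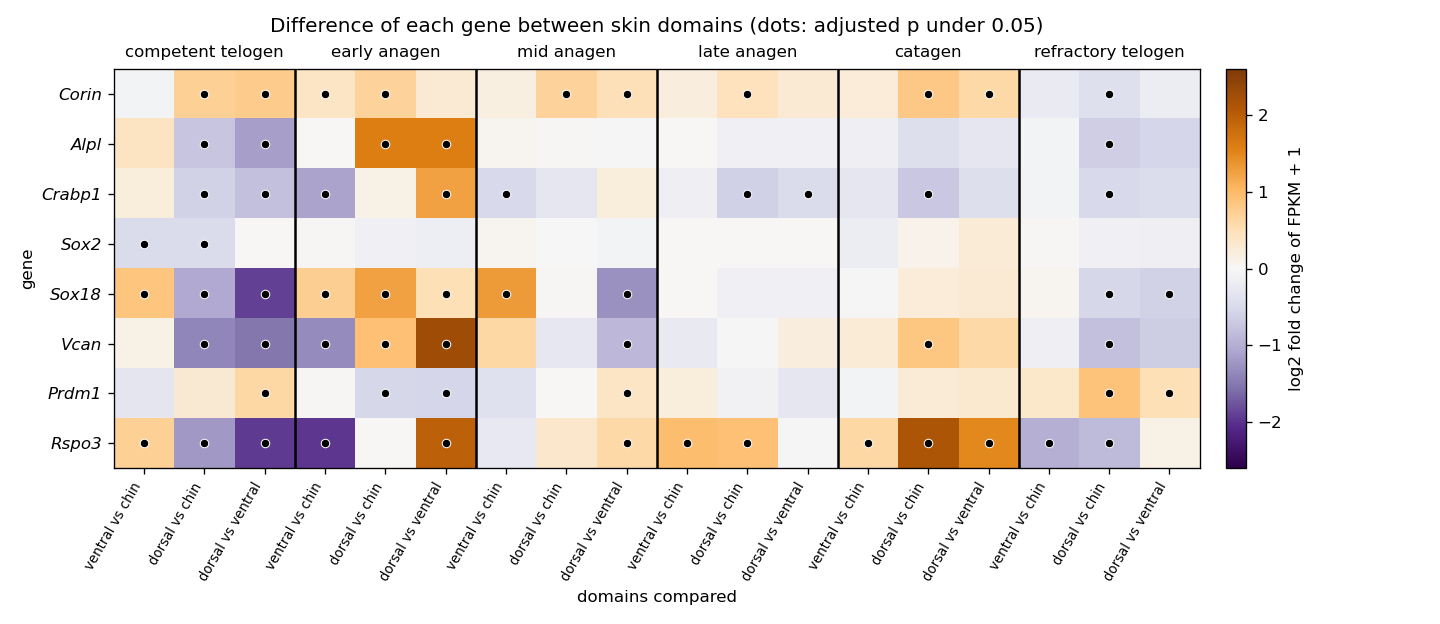
Log2 difference of FPKM + 1 between each pair of skin domains at the 6 stages for the 8 genes, orange where the first-named domain is higher and purple where it is lower, with a dot where the adjusted p is under 0.05. Dorsal skin is purple for Sox18, Vcan and Rspo3 at competent telogen, at -1.90, -1.51 and -1.93 against ventral skin, and orange at early anagen, at 0.52, 2.27 and 1.96.

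The ear was compared with the dorsal skin held in the same table, as the study asked how ear follicles, which seldom grow, differ. That dorsal skin is labelled competent telogen. For this comparison the paper names refractory telogen dorsal skin in its text and first telogen in its figure legend. Of the 7 genes tested, 4 were higher and 2 lower in ear skin than in dorsal skin (44.7% and 14.6% of all genes), and the median of all genes was itself higher by 0.33. Ear skin held 13.62 and 9.17 FPKM of Sox18 against 3.64 and 4.17 in dorsal skin (1.32 ± 0.18, adjusted p = 0.0012). It held 5.55 and 5.48 FPKM of Vcan against 2.35 and 1.62 (1.14 ± 0.15, adjusted p = 0.0010), and 4.0 and 4.99 FPKM of Rspo3 against 1.57 and 1.38 (1.15 ± 0.15, adjusted p = 0.00090). Prdm1 was lower, at 5.21 and 4.79 against 10.44 and 11.21 FPKM (-0.98 ± 0.10, adjusted p = 0.00034). These 4 differences were also called against dorsal refractory telogen, taken from the skin table, and were the only calls of the 7 genes there (57.5% of all genes). Corin was lower in ear skin, at 0.12 and 0.21 against 1.23 and 1.2 FPKM (-0.93 ± 0.08, adjusted p = 0.00013), but not when set against dorsal refractory telogen (-0.12 ± 0.08, adjusted p = 0.26), where it was low as well. Crabp1, at 29.73 and 33.21 against 20.93 and 24.05 FPKM, was called higher (0.47 ± 0.10, adjusted p = 0.0090), and this was lost against dorsal refractory telogen (0.01 ± 0.10), without the ear skin library headed 3 in the table or dorsal competent telogen replicate 1 (adjusted p up to 0.0572), and under median-of-ratios scaling, where the sign turned (-0.01). The 7 hair matrix and inner root sheath genes were at 3.51 to 3.52 in ear skin and at 8.41 in dorsal skin on the mean log2 scale, and 6 dermal fibroblast genes at 9.32 to 9.33 and 6.71 to 6.72. The part of these tissues in the ear differences was not tested.

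In the cartilage/muscle complex, which holds no skin in its label, Corin measured 77.02, 74.40 and 76.67 FPKM. This was 461 times the mean of ear skin, 62.6 times that of dorsal skin and 22.6 times the highest group mean of the 18 skin groups. The difference from ear skin was 6.05 ± 0.07 (adjusted p = 2.2e-08) and from dorsal skin 5.12 ± 0.07 (adjusted p = 2.5e-08). The chondrocyte list of 7 genes was at 6.59 to 6.69 there, at 1.06 to 1.08 in ear skin and at 1.05 to 1.06 in dorsal skin. The skeletal muscle list was at 10.12 to 10.31 there and at 9.70 to 10.41 in chin refractory telogen, where Corin was 0.70, 0.53 and 0.77 FPKM. The adipocyte list was at 6.14 to 6.34 there and at 6.70 to 6.85 in the same chin libraries. Those chin values come from the skin table and are set beside the ear table as a description. The part of cartilage, muscle or fat in the level of Corin was not tested. In the annotation, 5 genes lie within the span of Corin, among them the snRNA genes Gm25768 and Gm23712 on the same strand, which reached 18.15 and 9.17 FPKM in this tissue, and fragments could be shared between them.

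Prdm1 went the other way, to 0.18, 0.17 and 0.07 FPKM in the cartilage/muscle complex, 35.7 times below ear skin (-2.40 ± 0.09, adjusted p = 2.5e-06). Crabp1 was at 7.40, 6.48 and 7.15 FPKM, 4.49 times below ear skin (-2.02 ± 0.09, adjusted p = 6.6e-06), and Vcan at 1.80, 1.63 and 1.34 FPKM, 3.47 times below it (-1.33 ± 0.14, adjusted p = 0.00023). Rspo3, at 7.72, 6.72 and 8.77 FPKM, was above ear skin (0.67 ± 0.13, adjusted p = 0.0050). Alpl, at 2.08, 3.06 and 1.92 FPKM, was above ear skin at 1.17 and 1.00 FPKM (0.67 ± 0.16, adjusted p = 0.0097), a call lost without that ear skin library (adjusted p = 0.0634). In all, 3 of 7 genes were higher and 3 lower than in ear skin, against 28% and 38.5% of all genes. Sox18, at 8.25, 9.13 and 7.86 FPKM, was below both ear skin libraries without passing the test (adjusted p = 0.086). Against dorsal skin 4 were higher and 2 lower (42.8% and 28.3%), with Sox18 among the higher (0.94 ± 0.16, adjusted p = 0.0024) and Alpl lost without either dorsal library (adjusted p up to 0.0582). Against dorsal refractory telogen all 7 were called, 5 higher and 2 lower (68.5% of all genes were called), with Vcan higher as well (0.57 ± 0.16, adjusted p = 0.022). Sox2 was at 0.07 to 0.20 FPKM in the 7 libraries. Of the 22 further papilla genes tested, 11 were higher and 6 lower than in ear skin (28% and 38.5% of all genes), and Wif1 (6.64, adjusted p = 1.2e-08), Ndp, which encodes the ligand norrin (3.56, adjusted p = 3.5e-07), and the BMP inhibitor Nog (3.01, adjusted p = 3.7e-06) were among the higher. Markers of hair were near 0 in this tissue, with the hair matrix list at 0.27 to 0.37, with 4 of its 7 genes listed at 0.

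**Figure D5:**
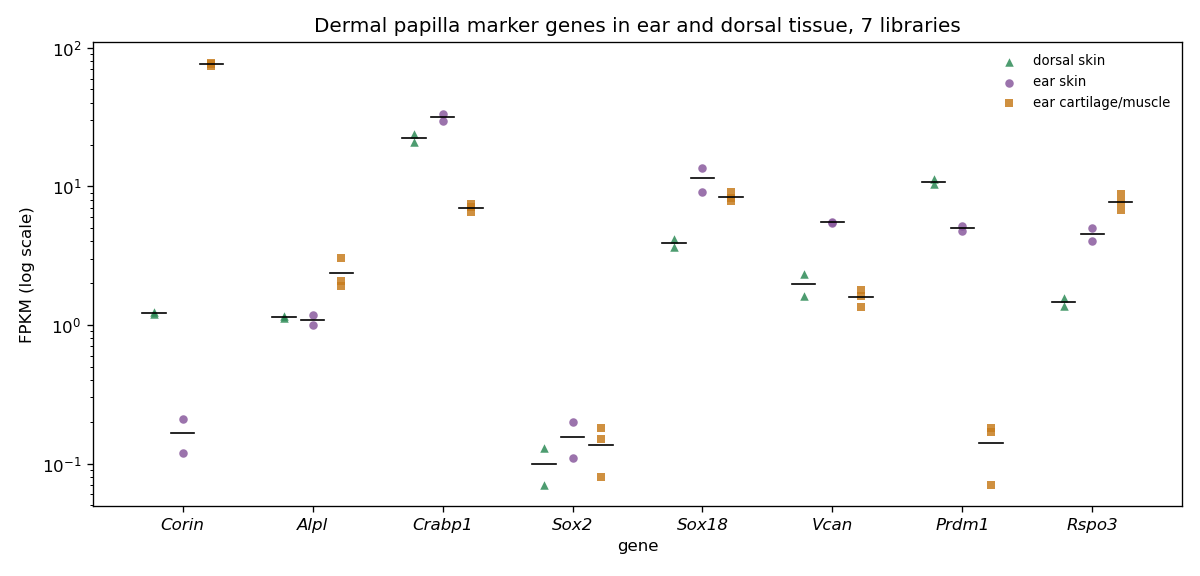
FPKM (log axis) of the 8 genes in 2 dorsal skin, 2 ear skin and 3 ear cartilage/muscle libraries, with points for libraries and bars for means. Corin lies at 74.40 to 77.02 FPKM in cartilage/muscle and at 0.12 to 1.23 FPKM in both skins, and Prdm1 is reversed.

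The 8 genes did not share 1 course. Over the 18 group means, Alpl correlated with Sox18 and with Vcan at r = 0.82 each and Sox18 with Vcan at 0.72, but over the 12 groups without competent telogen and early anagen these values were 0.30, 0.10 and 0.29. Corin and Rspo3 went from 0.27 to 0.78 when those groups were left out, and Corin and Vcan from -0.20 to 0.57. Points share libraries and stages, and these values are descriptions. Neighbouring groups in the order of levels mostly did not differ beyond their spread. The mean ± SD of neighbours stayed apart in 4 of 17 neighbouring pairs for Alpl, 3 for Corin and Sox18, 2 for Crabp1, 1 for Vcan, Prdm1 and Rspo3 and 0 for Sox2. For Alpl, Corin, Vcan and Rspo3 the highest group was 1 of those set apart from the next.

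Among 12070 genes with at least 5 FPKM in a group mean, those with the course most like each marker were named by the 3 highest r over the 18 group means. These r include the groups in doubt and were not computed without them. For Alpl they were Col4a1 (0.929), a chain of basement membrane collagen, Ndp (0.924) and Prdx4 (0.912). For Vcan they were the fibrillar collagen gene Col11a1 (0.937), Fgf7 (0.913) and Ppfibp1 (0.909), and for Sox18 Mrgprf (0.941), Atp6v1b1 (0.939) and Col4a2 (0.922). For Corin they were Ctnna1 (0.921), which encodes alpha-catenin, Gm5776 (0.891) and Atp6v0d2 (0.858). For Rspo3 they were Nhsl1 (0.922), Fam49b (0.905) and Pcdh7 (0.898), and for Prdm1 Rai14 (0.967), Tmem64 (0.964) and Mark1 (0.935). For Crabp1 they were Ly6a (0.851), Nme3 (0.845) and Rnase4 (0.842), and for Sox2, at its few fragments, Mir5128 (0.883), Atl3 (0.820) and Nhej1 (0.814).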

How the data were processed

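Per the labels, RNA from whole skin and from the ear was made into SMART-seq2 libraries. The authors used mm10 and gencode.vM8 for alignment and RSEM 1.2.25 for quantification, and deposited FPKM values with 2 decimals in 2 tables. The paper states a correction for batch effects but names neither batches nor method. It does not say whether the deposited values carry that correction. The part of that correction in any difference was not tested. Replicates were not pooled. The 8 genes, and the lists of other papilla genes and of cell type genes, were chosen with earlier results of these data known.

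Values were taken to log2(FPKM + 1) and tested with limma 3.58.1 (R 4.3.3), whose prior variance followed the mean level, over genes that reached 0.5 FPKM in 2 or more libraries. The 18 skin groups entered 1 fit and the 3 tissues of the ear table another. Contrasts were each stage against the stage before it, competent against refractory telogen, domains at each stage and the 3 pairs of ear tissues. F-tests ran over stages, among domains and for their interaction. Each was adjusted over all genes tested by Benjamini-Hochberg with a threshold of 0.05. The fits were checked on simulated data. Errors after ± are SE. All 8 genes were named throughout, with the 3 genes of the most similar course for each and 1 or 2 examples of a list. The deposited tables hold no counts. Depth was estimated from the steps between low FPKM values, which in simulated libraries of 28000000 fragments came out up to 8.2% too low. Gene positions are those of GENCODE vM21 on GRCm38. The 2 dorsal libraries shared by the skin and the ear table carry the same values in both. Whether the other libraries of the 2 tables were processed alike is not known, so levels set across them are descriptions. The fits against dorsal refractory telogen join both tables and carry the same limit. Other pseudocounts, filters, scalings, variance models, sets of libraries and a replicate block were tried.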

Additional observations from a re-analysis of the deposited data

Results flagged for a closer look

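The courses of 8 of 8 genes, Sox2 included, over the stages differed between chin, ventral and dorsal skin by a test of the difference itself (limma, F-test of the 10 domain-by-stage contrasts). This was so for 73.3% of all genes, so the set of genes does not stand out by it. For Rspo3 the adjusted p was 3.83e-13, and the gene fell from catagen to refractory telogen in ventral and dorsal skin and rose in chin skin. For Sox18 it was 2.77e-08, with peaks at dorsal early anagen and ventral competent telogen. For Alpl it was 4.34e-08 and for Vcan 4.38e-08, and both rose into early anagen in dorsal skin and fell in ventral skin. For Crabp1 it was 3.69e-07, and the gene fell 1 stage earlier in ventral skin. For Prdm1 it was 1.69e-05, with a trough in dorsal early anagen. For Corin it was 3.09e-05, with dorsal competent telogen above that of the other domains. For Sox2 it was 0.0180, at a median of 2.9 estimated fragments per library, and since Sox2 passed the filter through 1 library each of the groups where it was highest, that value depends on its own level. Without the competent telogen and early anagen libraries, Alpl (adjusted p = 0.361) and Crabp1 (adjusted p = 0.133) were no longer called, Sox2 could not be tested and the other 5 genes were still called.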

How the results depend on the processing

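The 153 calls on the 8 genes over stages, at steps, among domains, for the interaction and in the ear were followed through other fits. Differences between pairs of domains were not. Of the 153, 116 were lost in no fit with a library left out, 131 under no other setting of the values, and 112 under neither, counting the fits that tested the gene. The 153 include the calls on Sox2. Without chin competent telogen replicate 1 or ventral early anagen replicate 3, Sox2 failed the filter and was not tested, which was not counted as a loss. With 1 library left out, the genes changed over the stages numbered 7 to 8 in chin skin, 7 to 8 in ventral skin and 7 in dorsal skin, and those with an interaction 7 to 8. Among domains they numbered 7 to 8 at competent telogen, 6 to 7 at early anagen, 3 to 4 at mid anagen (5 with all libraries), 2 to 3 at late anagen, 3 to 4 at catagen and 2 to 7 at refractory telogen. The low of 2 came without dorsal refractory telogen replicate 2, the low of 3 at mid anagen without ventral mid anagen replicate 1 or 2 or dorsal mid anagen replicate 3. Rises and falls over the steps ran from 6 to 9 and 5 to 10 in chin skin (5 without chin early anagen replicate 2 and 6 without chin competent telogen replicate 1), 13 to 16 and 9 to 12 in ventral skin, and 12 to 14 and 8 to 11 in dorsal skin. Calls in the ear numbered 5 to 6, 6 and 5 to 6. Prdm1 at ventral competent against refractory telogen ran from -0.88 to 0.035, the latter without ventral refractory telogen replicate 1. The lows of 7 over the stages in chin and ventral skin, at competent telogen and for the interaction came in fits where Sox2 was not tested. The low of 6 rises in chin skin came in such a fit too. The cause of the other changes was not tested beyond the smaller number of libraries. Shares of all genes in the fits with 1 library left out are not given.

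At refractory telogen the genes called among domains numbered 4 with median-of-ratios scaling, 4 with quantile normalization and 1 with only the libraries of the stage, which leave fewer degrees of freedom, and at mid anagen 1 with only the libraries of the stage. Without the chin late anagen libraries 0 were called at late anagen with limma, and 3 had an unadjusted p under 0.05. The main fit called 42.2% of all genes at refractory telogen, 38.1% at mid anagen and 20.8% at late anagen. The shares in these other fits are not given, so the lower counts cannot be read as particular to the 8 genes. The difference of Crabp1, ear skin against dorsal skin, changed sign with median-of-ratios scaling (-0.00745). The next 3 alternatives were chosen after seeing the data. Without competent telogen and early anagen 5 genes changed over the stages in chin (58.6% of all genes), in ventral (47.8%) and in dorsal skin (54.9%), and 5 had an interaction (61.7%). Over the 3 steps left the rises and falls were 4 and 3 in chin skin, 5 and 4 in ventral skin and 5 and 3 in dorsal skin. No share of all genes is given for these steps. Without dorsal competent telogen 3 genes, Sox2 included, differed at that stage (22.6% of all genes did), and without ventral early anagen 5 at that one (26.3%). Libraries of the same replicate number had a median correlation of deviations of 0.004 over 153 pairs of groups. Most of these pairs join different stages, so the median cannot show whether the domains of a stage came from the same mice. A replicate block, which used the same numbers across all stages, moved no count by over 1.5 times. It left 8 genes called over the stages in dorsal skin against 7. In the ear table the cartilage/muscle and dorsal columns carry the numbers of the labels (correlation of deviations -0.001 and 0.06), and a replicate block left the same 6 genes called between them. No paired analysis was possible for ear skin because the numbers of its columns differ from those of the labels. Low levels limit Sox2, which 2 libraries carried over the filter.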
